A study of Mus musculus with 8 samples.

Results

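The interferon response genes encode interferon receptors, their kinases and transcription factors, and products that interferons induce. They are a list of 41 mouse genes, chosen by name with earlier results of these data known. Of these, 40 had a row among the 24988 genes of the matrix, and 34 passed the filter of a mean of at least 0.5 CPM (read counts scaled by library size) over all libraries, as did 22027 genes in all. Rsad2 had no row and is not analysed here. Oas1a, Ifit1, Ifit2, Ifitm1, Isg15 and Ifi44 had rows but lay below the filter. Whole adult testis was compared between 4 WT-labelled libraries (genotype WT) and 4 labelled Kpna2 knockout (genotype Kpna2-/-). Kpna2 is an importin alpha, an adaptor of nuclear import for proteins that carry a localization signal. The strain, the design of the deleted allele and the number of animals are not given in the labels, so p-values measure the spread between these libraries, which may be technical. No treatment or infection is named in the labels for either group.

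Interferons are secreted proteins that signal through receptor pairs on the cell surface. Type I interferons bind Ifnar1 with Ifnar2 and interferon gamma binds Ifngr1 with Ifngr2. The Jak kinases on these receptors phosphorylate Stat proteins. Stat2 joins Irf9 in the complex that binds the interferon-stimulated response element and switches on antiviral genes, and Stat dimers bind the gamma-activated site. In the testis, interferon-induced genes are known from infection studies of somatic and germ cells.

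Each library held between 31133443 and 37797812 reads. Kpna2 itself had 12.4 to 15.1 CPM where the label is wild type and 15.3, 20.2, 19.4 and 21.7 CPM in those labelled knockout. The means were 13.9 ± 1.11 and 19.2 ± 2.76 CPM (SD, n = 4 each; limma adjusted p = 0.0079). The targeted gene was thus higher, not lower, where the label says knockout, in a value summed over all its exons. Directions are therefore given by label, and libraries are called WT-labelled and KO-labelled. Columns were tied to samples by name and number alone, and from gene totals exchanged labels and a deletion that leaves most of the transcript cannot be told apart. With exchanged labels every direction below would be the opposite. Markers of testis germ cells were abundant in all 8 libraries: the summed CPM of 7 spermatid markers, with Prm1 and Tnp1 among them, was 21452 to 22699 in WT-labelled libraries and 18626 to 24501 in KO-labelled libraries. Log2 fold changes, KO-labelled minus WT-labelled, were computed from log2(CPM + 0.5), a scale that understates the change of low genes.

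Promoter sequences are shown for 4 of the members that fell and for Isg15, a classical interferon-induced gene that lay below the filter here, to show how a window with several matches looks. Each run holds the 250 bases before a RefSeq start site, 5′ to 3′ on the gene's strand, in build GRCm38.p6. Capitals mark matches to the core of the interferon-stimulated response element, searched as GAAANNGAA on both strands. The windows are chr10:128270248-128270497 on the plus strand for Stat2, chr12:55492648-55492897 on the minus strand for Nfkbia, chr16:91484965-91485214 on the plus strand for Ifnar1, chr10:19591699-19591948 on the plus strand for Ifngr1 and chr4:156200819-156201068 on the minus strand for Isg15.
Stat2: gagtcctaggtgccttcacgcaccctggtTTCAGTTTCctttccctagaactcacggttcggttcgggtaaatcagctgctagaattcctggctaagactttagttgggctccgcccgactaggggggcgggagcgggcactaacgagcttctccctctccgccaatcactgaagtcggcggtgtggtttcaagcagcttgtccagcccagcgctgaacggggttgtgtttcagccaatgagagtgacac
Nfkbia: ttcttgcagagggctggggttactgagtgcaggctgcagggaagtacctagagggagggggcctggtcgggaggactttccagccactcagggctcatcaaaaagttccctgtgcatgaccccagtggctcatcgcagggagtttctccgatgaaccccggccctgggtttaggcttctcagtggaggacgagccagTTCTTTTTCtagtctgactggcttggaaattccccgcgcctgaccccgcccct
Ifnar1: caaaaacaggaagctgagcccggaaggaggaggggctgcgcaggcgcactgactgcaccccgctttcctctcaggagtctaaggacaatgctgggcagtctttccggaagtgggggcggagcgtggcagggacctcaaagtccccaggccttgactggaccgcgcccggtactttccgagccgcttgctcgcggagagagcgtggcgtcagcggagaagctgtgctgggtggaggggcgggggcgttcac
Ifngr1: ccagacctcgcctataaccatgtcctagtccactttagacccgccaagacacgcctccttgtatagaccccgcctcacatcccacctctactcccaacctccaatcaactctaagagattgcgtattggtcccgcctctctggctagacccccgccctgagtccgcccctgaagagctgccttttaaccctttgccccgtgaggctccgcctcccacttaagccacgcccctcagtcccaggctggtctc
Isg15: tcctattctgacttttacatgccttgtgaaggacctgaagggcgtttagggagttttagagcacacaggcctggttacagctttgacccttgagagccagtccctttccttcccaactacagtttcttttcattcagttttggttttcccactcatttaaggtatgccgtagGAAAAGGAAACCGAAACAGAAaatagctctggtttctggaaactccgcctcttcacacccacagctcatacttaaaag

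Stat2 had 1 match, which began 221 bases before the start site, and Nfkbia had 1, which began 53 bases before it. Isg15 had 3 matches that share bases, which began 78, 72 and 66 bases before it. The Ifnar1 and Ifngr1 windows had none. Windows of Gbp2 and Isg20, which also fell, are not shown. The Gbp2 window had 1 match, which began 58 bases before the start site, and the Isg20 windows had none. Of the 41 members, 34 had 42 promoter windows in the RefSeq table, and 14 of the 42 windows (33.3%) held the core, against 7.13% of all 32851 windows. The 14 genes were Adar, Bst2, Gbp2, Gbp3, Ifih1, Ifit1, Ifit3, Ifitm2, Irf2, Isg15, Nfkbia, Oas1a, Rsad2 and Stat2. The gamma-activated site, searched as TTCNNNGAA on both strands, was in 8 of the 42 windows (19.0%), against 7.02% of all windows, and these belonged to Bst2, Eif2ak2, Ifit2, Ifnar2, Irf1, Irf2, Isg20 and Oas1a. Matches to both motifs may share bases. Many members were listed because interferons induce them, so a higher share of these motifs is a property of the list. It is no result of these libraries. Repeated windows, if any, were dropped for the members but not for all genes. No promoter windows were found for Dhx58, Ifi27, Mx1, Mx2, Oas2, Usp18 and Zbp1.

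Of the 34 tested members, 7 fell and none rose in the KO-labelled libraries: Stat2, Mx1, Ifnar1, Nfkbia, Ifngr1, Isg20 and Gbp2. The falls were between 1.14-fold (Isg20) and 2.28-fold (Stat2) in mean CPM. The 7 genes are 20.6% of the tested members, against 16.9% called in either direction, 8.32% called lower and 8.62% called higher among all 22027 genes by limma with Benjamini-Hochberg adjustment at 0.05. As the list was chosen with earlier results of these data known, this share is not from an independent list. The edgeR and DESeq2 tests each called 7 members lower, all 7 shared with limma, and none higher. The groups did not overlap for 8 tested members, the 7 and Dhx58, all lower in KO-labelled libraries, against 10.7% of all genes that did not overlap and were lower and 10.1% that did not overlap and were higher. The median log2 fold change was -0.07 over the tested members and -0.01 over all tested genes. In whole tissue, fewer cells of a type and less RNA per cell cannot be told apart.

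**Figure D1:**
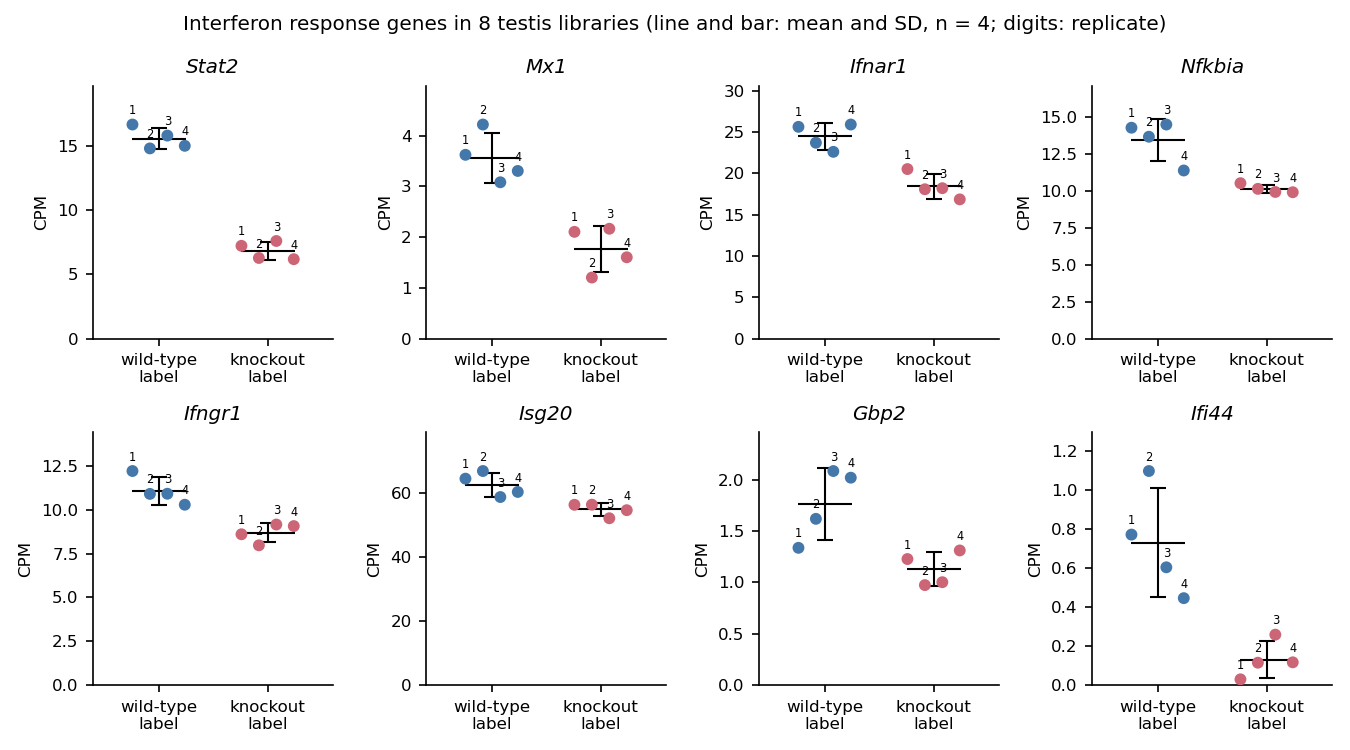
Each panel plots CPM (linear axis from 0) of 1 gene in the 4 WT-labelled libraries (blue) and the 4 labelled knockout (red), with the mean and SD as a line and bar and the replicate as a digit. In all 8 panels every KO-labelled library lies below every WT-labelled library, with the closest pair of libraries for Gbp2 at 1.31 and 1.34 CPM.

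Among the receptors, 1 chain of each receptor pair fell. Ifnar1, the type I interferon receptor chain that carries Tyk2 (ENSMUSG00000022967; chromosome 16, 91485238 to 91507441 in GRCm38), stood at 25.6, 23.7, 22.6 and 25.9 CPM in WT-labelled replicates 1 to 4 and at 20.5, 18.1, 18.2 and 16.9 CPM in KO-labelled replicates 1 to 4. All 4 KO-labelled libraries were below all 4 labelled wild type. The mean went from 24.5 ± 1.58 to 18.4 ± 1.53 CPM (SD, n = 4 each), a log2 fold change of -0.40 (SE 0.07, limma adjusted p = 0.0021).

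Ifngr1, the ligand-binding chain of the interferon gamma receptor (ENSMUSG00000020009; chromosome 10, 19591949 to 19610229), had 12.2, 10.9, 10.9 and 10.3 CPM in WT-labelled libraries and 8.61, 7.98, 9.17 and 9.08 CPM in KO-labelled libraries. Here too the groups did not overlap. This was a log2 fold change of -0.33 (SE 0.08, limma adjusted p = 0.015), and the call was lost without WT-labelled replicate 1 (limma adjusted p = 0.057).

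The partner chains were not called, and the difference between the chains of a pair was not tested. Ifnar2 stood at 4.88 ± 0.331 and 4.61 ± 0.820 CPM and Ifngr2 at 30.5 ± 2.20 and 30.5 ± 1.10 CPM (SD, n = 4 each). The 95% intervals of their log2 fold changes ran from -0.34 to 0.18 for Ifnar2 and from -0.13 to 0.14 for Ifngr2. Within 250 kb of Ifnar1, 16 other genes were tested, Ifnar2 and Ifngr2 among them, of which 1 fell (Dnajc28, named after its values were seen, from 56.2 ± 5.19 to 32.2 ± 2.06 CPM) and 3 rose.

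The receptor-bound kinases were not called either. Jak1 stood at 44.6 ± 1.89 and 42.3 ± 2.50 CPM and Tyk2 at 26.7 ± 1.46 and 27.0 ± 1.61 CPM (SD, n = 4 each). Their 95% intervals were -0.20 to 0.05 and -0.12 to 0.16 on the log2 scale.

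Stat2 had the largest fall of the tested members. This gene of the type I interferon transcription factor (ENSMUSG00000040033; chromosome 10, 128270559 to 128292849) had 16.6, 14.8, 15.8 and 15.0 CPM in the WT-labelled libraries, from 512 to 572 reads each. Under the knockout label it had 7.21, 6.26, 7.59 and 6.17 CPM, from 212 to 247 reads each. The highest KO-labelled library was thus far below the lowest labelled wild type. The mean went from 15.6 ± 0.847 to 6.81 ± 0.700 CPM (SD, n = 4 each), a log2 fold change of -1.14 (SE 0.09, limma adjusted p = 1.2e-06).

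Of 24 other genes tested within 250 kb, 2 fell (Gls2, from 3.60 ± 0.171 to 2.64 ± 0.192 CPM, and Cs, citrate synthase, from 76.2 ± 4.26 to 66.4 ± 2.29 CPM) and 1 rose (Zc3h10). These neighbours were named after their values were seen.

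None of the 5 Irf genes, which encode interferon regulatory transcription factors, passed in limma, edgeR or DESeq2, and 1 (Irf2) had an unadjusted p under 0.05 in limma. Irf9, the DNA-binding partner of Stat2, stood at 4.08 ± 0.495 and 3.82 ± 0.616 CPM (SD, n = 4 each), with a 95% interval of -0.36 to 0.18. Irf3, which responds to the nucleic acid sensors, stood at 52.4 ± 2.90 and 51.3 ± 3.12 CPM. Irf7, the inducible amplifier of type I interferon production, was low at 1.53 ± 0.610 and 1.66 ± 0.267 CPM. Irf1, an activator downstream of interferon gamma, stood at 2.67 ± 0.441 and 2.32 ± 0.232 CPM, and Irf2, a repressor that binds the same sites, at 9.12 ± 1.22 and 10.7 ± 0.691 CPM. Irf2 was the member of this family with the smallest limma adjusted p, 0.15. Irf9 overlaps Rnf31 on the same strand, and Irf3, Irf7 and Irf2 overlap genes on the other strand, so some of their reads may belong to those genes.

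**Figure D2:**
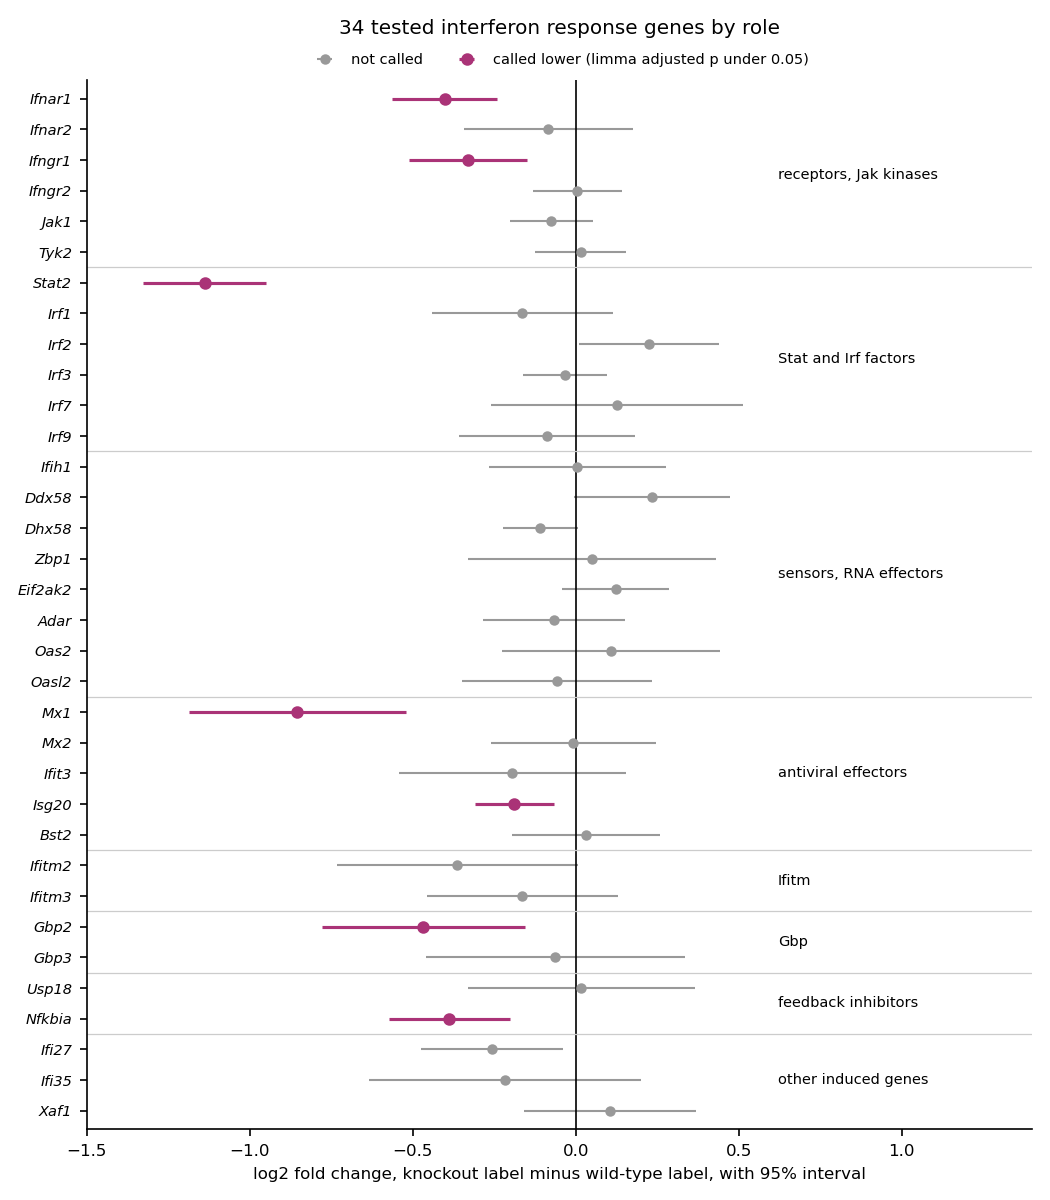
Log2 fold changes (horizontal axis, knockout label minus wild-type label) of the 34 tested members with 95% intervals, in rows ordered by role. The 7 called genes (purple) all lie left of 0 between -1.14 and -0.19, and the 27 others (grey) lie between -0.36 and 0.23.

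Of 8 tested sensors of foreign nucleic acid and RNA-acting effectors, limma, edgeR and DESeq2 called none, and none had an unadjusted p under 0.05 in limma. Ddx58, which encodes the sensor RIG-I, had 3.80, 3.87, 4.44 and 4.77 CPM in WT-labelled libraries and 5.37, 5.32, 4.33 and 5.18 CPM in KO-labelled libraries. The groups overlapped through KO-labelled replicate 3, and the limma adjusted p was 0.17. Ifih1, the sensor MDA5, stood at 1.77 ± 0.0825 and 1.79 ± 0.295 CPM (SD, n = 4 each).

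Dhx58, the regulator LGP2 of this sensor family, was among the higher members per length. It had 49.2, 47.6, 48.3 and 52.0 CPM in WT-labelled libraries and 43.6, 44.8, 47.2 and 47.0 CPM in KO-labelled libraries. The groups did not overlap, but the log2 fold change of -0.11 did not pass (limma adjusted p = 0.19). Eif2ak2, the kinase PKR that halts translation on double-stranded RNA, stood at 17.5 ± 0.852 and 19.1 ± 1.69 CPM.

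Adar, which edits adenosine to inosine in double-stranded RNA, stood at 11.0 ± 0.226 and 10.6 ± 1.60 CPM, with 8.41 CPM in KO-labelled replicate 4 against 10.4 to 11.8 CPM in the other 3 of its group. Zbp1, a sensor of left-handed nucleic acid, was at 1.24 ± 0.413 and 1.28 ± 0.263 CPM. The oligoadenylate synthetase genes Oas2 and Oasl2 stood at 0.737 ± 0.191 and 0.830 ± 0.188 CPM and at 4.97 ± 1.07 and 4.69 ± 0.368 CPM. Oas1a had 2 to 14 reads per library and lay below the filter. Reads of close copies in the Oas, Ifit, Gbp and Mx families may be split between genes, and Adar, Jak1 and Dhx58 overlap genes on the other strand.

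Of the antiviral effectors, Mx1 fell most among those tested. This gene of a dynamin-like GTPase that blocks influenza virus (ENSMUSG00000000386; chromosome 16, 97447035 to 97462907) had 3.62, 4.22, 3.08 and 3.30 CPM in WT-labelled libraries, from 102 to 146 reads each. Under the knockout label it had 2.10, 1.20, 2.16 and 1.60 CPM, from 42 to 72 reads each. No KO-labelled library reached the lowest labelled wild type. The mean went from 3.55 ± 0.494 to 1.77 ± 0.453 CPM (SD, n = 4 each), a log2 fold change of -0.85 (SE 0.16, limma adjusted p = 0.0017).

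Its neighbour and paralog Mx2, annotated as a polymorphic pseudogene, stood at 2.56 ± 0.305 and 2.54 ± 0.171 CPM, with a 95% interval of -0.26 to 0.25. Many laboratory mouse strains carry a defective Mx1 allele, and the strain is not given here. Of 5 other genes tested within 250 kb of Mx1, Bace2 (from 1.49 ± 0.311 to 0.671 ± 0.209 CPM) and Fam3b (from 31.4 ± 1.39 to 26.5 ± 1.80 CPM) also fell, both named after their values were seen. Within 250 kb of Ifngr1, 1 of 4 tested genes fell, and near Nfkbia 1 of 8 fell and 2 rose. Near Gbp2 1 of 8 rose, and near Isg20 none of 8 was called. Over all tested genes, 16.9% were called in either direction.

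Isg20, an exonuclease that degrades single-stranded RNA (ENSMUSG00000039236; chromosome 7, 78913424 to 78920396), was the highest of the 40 members per length, at 33.7 CPM per kb of exon in WT-labelled libraries. It had 64.5, 66.9, 58.7 and 60.3 CPM in WT-labelled libraries and 56.3, 56.3, 52.1 and 54.6 CPM in KO-labelled libraries. The groups did not overlap, and the closest libraries stood at 58.7 and 56.3 CPM. This was a log2 fold change of -0.19 (SE 0.06, limma adjusted p = 0.034). The call was lost without WT-labelled replicate 1 or 2 or KO-labelled replicate 3 or 4 (limma adjusted p of 0.096, 0.12, 0.090 and 0.069).

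The Ifit genes, whose products bind foreign RNA ends, were low in both groups. Ifit3 stood at 0.926 ± 0.248 and 0.742 ± 0.193 CPM and was not called. Ifit1 and Ifit2 lay below the filter, with 4 to 19 and 10 to 23 reads per library. Bst2, or tetherin, which holds budding virus particles at the cell surface, stood at 5.92 ± 0.645 and 6.06 ± 0.585 CPM.

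Neither tested gene of the Ifitm family, whose products block virus entry at membranes, passed in limma, edgeR or DESeq2, and neither had an unadjusted p under 0.05 in limma. For Ifitm2 the unadjusted p was 0.054 in limma, 0.0495 in edgeR and 0.0369 in DESeq2. Ifitm2 had 5.85, 5.92, 3.53 and 5.19 CPM in WT-labelled libraries and 3.91, 3.60, 5.13 and 2.85 CPM in KO-labelled libraries. WT-labelled replicate 3 and KO-labelled replicate 3 crossed over, and the limma adjusted p was 0.17. Without WT-labelled replicate 3 it passed (limma adjusted p = 0.048). Ifitm3 stood at 5.12 ± 0.690 and 4.54 ± 0.843 CPM, and Ifitm1, with 4 to 20 reads per library, lay below the filter. These genes are close copies, so reads may be split between them.

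Gbp2, a guanylate-binding protein that acts against pathogens inside cells (ENSMUSG00000028270; chromosome 3, 142620602 to 142638008), had 1.34, 1.62, 2.08 and 2.02 CPM in WT-labelled libraries and 1.23, 0.973, 1.00 and 1.31 CPM in KO-labelled libraries. WT-labelled replicate 1 was only just above KO-labelled replicate 4. This was a log2 fold change of -0.47 (SE 0.14, limma adjusted p = 0.040). The call was lost without WT-labelled replicate 2, 3 or 4 or KO-labelled replicate 2 or 3 (limma adjusted p of 0.065, 0.11, 0.11, 0.090 and 0.091), and with the replicate number as a block (limma adjusted p = 0.056). Its paralog Gbp3 stood at 1.43 ± 0.597 and 1.30 ± 0.155 CPM.

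In the list of the Isg15 system and feedback inhibitors, Nfkbia, the gene of an NF kappa B inhibitor, fell. It encodes I kappa B alpha, which holds the transcription factor NF kappa B in the cytoplasm (ENSMUSG00000021025; chromosome 12, 55489410 to 55492647). It had 14.3, 13.7, 14.5 and 11.4 CPM in WT-labelled libraries and 10.5, 10.2, 9.94 and 9.92 CPM in KO-labelled libraries. WT-labelled replicate 4 was the library of its group nearest to those labelled knockout, with no overlap. This was a log2 fold change of -0.39 (SE 0.09, limma adjusted p = 0.0069). Usp18, which removes Isg15 from proteins and dampens type I receptor signalling, stood at 0.744 ± 0.275 and 0.738 ± 0.0713 CPM. Isg15, the ubiquitin-like modifier itself, had 7 to 25 reads per library and lay below the filter.

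Of the other induced genes, Ifi44 had the largest ratio of all 40 members, at a very low level (ENSMUSG00000028037; chromosome 3, 151730922 to 151749960). It lay below the filter, with 26, 38, 20 and 17 reads (0.771, 1.10, 0.604 and 0.445 CPM) in the WT-labelled libraries and 1, 4, 8 and 4 reads (0.0292, 0.114, 0.258 and 0.116 CPM) in those labelled knockout. The lowest WT-labelled library was above the highest labelled knockout, and the ratio of the mean CPM was 5.63. With no filter, limma gave -0.95 on the log2 scale (SE 0.17, adjusted p = 0.0015). Ifi44 was singled out after its values were seen. Of 2 other genes tested within 250 kb of Ifi44, none was called.

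Ifi27, which encodes a small membrane protein, had 21.5, 20.7, 17.7 and 24.9 CPM in WT-labelled libraries and 15.6, 18.9, 19.6 and 16.4 CPM in KO-labelled libraries. The groups overlapped through WT-labelled replicate 3, and the limma adjusted p was 0.10. Without that replicate it was 0.037. Ifi35 stood at 2.01 ± 0.683 and 1.61 ± 0.356 CPM and Xaf1, a partner of the apoptosis inhibitor XIAP, at 3.57 ± 0.477 and 3.88 ± 0.488 CPM.

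The 27 tested members that were not called had log2 fold changes of -0.36 to 0.23 and limma adjusted p of 0.10 to 0.99. Their 95% intervals, each taken for 1 gene alone, reached from -0.73 to 0.51. They are on the log2(CPM + 0.5) scale, which understates the change of low genes, so larger changes of low members could have gone unseen. Averaged per library relative to the wild-type mean, their log2 values were -0.09 to 0.14 in WT-labelled libraries and -0.06 to 0.02 in KO-labelled libraries. For the low members, 3 reads per library correspond to 0.0786 to 0.0968 CPM, and Oas1a, Ifit1, Ifitm1, Isg15 and Ifi44 each had 7 reads or fewer in at least 1 library.

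Most listed markers of myoid cells, fibroblasts and Leydig cells were called lower in KO-labelled libraries, as were the called members. A link between these falls was not tested. The summed CPM of 9 markers of peritubular myoid cells and fibroblasts was 195 to 241 in WT-labelled libraries and 85.7 to 143 in KO-labelled libraries. Of these 9, 7 fell and none rose (Acta2, Myh11, Col1a1, Col1a2, Col3a1, Dcn and Lum). This was 77.8% called, against 16.9% over all genes. Leydig cell markers summed to 1012 to 1205 CPM and 654 to 1079 CPM, with 4 of 7 lower and 1 higher (71.4% called). The order of libraries within the KO-labelled group is given for description only. It was not tested, and it sets log2 means beside CPM sums led by the most abundant markers. Averaged on the log2 scale relative to the wild-type mean, the called members were lowest in replicate 2 (-0.64) and highest in replicate 1 (-0.45). Leydig sums were highest in replicate 2 (1079 CPM) and lowest in replicate 1 (654 CPM). Myoid and fibroblast sums were highest in replicate 2 (143 CPM) and lowest in replicate 4 (85.7 CPM). The Leydig, endothelial and Sertoli cell sums overlapped between the groups. Endothelial markers summed to 45.4 to 52.4 CPM and 37.6 to 47.4 CPM, and Tek and Vwf, 16.7% of the 12, were lower, near the 16.9% called over all genes. DESeq2 also called 1 endothelial marker, Cldn5, higher. Sertoli cell markers summed to 994 to 1068 CPM and 857 to 1005 CPM, and Sox9 and Rhox5, 22.2% of the 9, were lower in limma, of which edgeR called Sox9 alone. All 9 Sertoli markers had a negative log2 fold change, and 4 had an unadjusted p under 0.05 in limma.

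Macrophage and lymphocyte marker sums overlapped between the groups. The sum of 15 macrophage markers was 467 to 515 CPM and 423 to 508 CPM, with Cx3cr1 lower and none higher. Of the 15, 11 had a negative and 4 a positive log2 fold change, and 4 had an unadjusted p under 0.05 in limma. Of 15 lymphocyte markers, 9 had rows and summed to 16.2 to 21.2 CPM and 14.5 to 25.1 CPM, with none of 5 tested called by limma, edgeR or DESeq2 and 2 at an unadjusted p under 0.05. Cd8a, Nkg7, Gzma, Gzmb, Prf1 and Ncr1 had no row. Of 5 genes of plasmacytoid dendritic cells, the main producers of type I interferon, Siglech and Ccr9 had no row. The other 3, Flt3, Tcf4 and Runx2, summed to 41.2 to 44.2 CPM and 37.9 to 39.0 CPM, without overlap. Each of these 3 genes alone overlapped between the groups, and Flt3 was called lower. With Siglech and Ccr9 absent, these sums do not show whether such cells were present or fewer. Of the germ cell lists, Uchl1 of 6 spermatogonium markers was lower, Sycp1 was lower and Spo11 higher of 5 spermatocyte markers, and limma, edgeR and DESeq2 called none of the 7 spermatid markers, none of which had an unadjusted p under 0.05.

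KO-labelled replicates 1 and 4 had the lowest sums of Leydig cell markers and of myoid and fibroblast markers. With both left out, a setting chosen after seeing the data, limma called 4 members lower and none higher: Stat2, Mx1, Ifnar1 and Nfkbia, all called with every library too. Ifngr1, Isg20 and Gbp2 were lost (limma adjusted p of 0.051, 0.089 and 0.051). KO-labelled replicates 2 and 3, which were kept, still had myoid and fibroblast sums of 143 and 137 CPM. The lowest WT-labelled sum was 195 CPM. With fewer libraries, calls can also be lost through lower power. This setting therefore does not test cell type content, and the part of it in the falls of the 7 members was not tested.

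**Figure D3:**
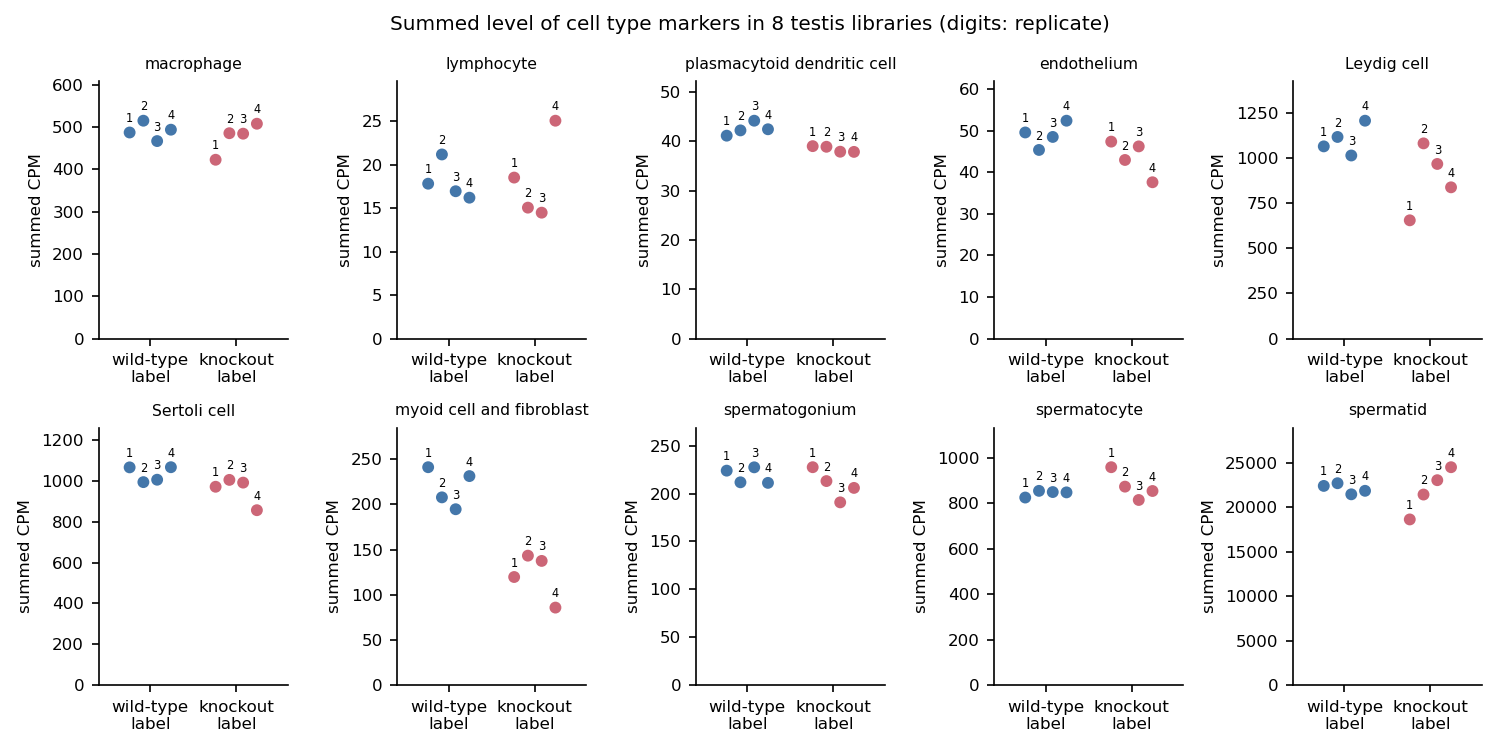
Summed CPM (linear axis from 0) of the markers of 10 testis and immune cell types in the 4 WT-labelled libraries (blue) and the 4 labelled knockout (red). The myoid cell and fibroblast sums do not overlap (195 to 241 against 85.7 to 143 CPM), while the macrophage sums do.

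The rest of the pathway was described by a list of 106 further genes. No ligand could be described: the 20 listed interferon ligand genes, Ifnb1 and Ifng among them, had no row and are not analysed here. Of 63 tested genes in the list, 6 fell and 3 rose, 14.3% called in all against the same 16.9% of all tested genes, and the median was -0.07 on the log2 scale. The 3 genes that rose had group means of 0.325 to 1.78 CPM, and Cxcl9 passed the filter only through its KO-labelled values.

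Nlrc5, the transactivator of MHC class I genes that interferon gamma induces, had the largest fall of this list. It had 12.1, 16.7, 12.4 and 20.0 CPM in WT-labelled libraries and 4.00, 4.00, 4.58 and 4.16 CPM in KO-labelled libraries. The KO-labelled libraries lay close together, below every WT-labelled library. The mean was 3.66-fold lower, a log2 fold change of -1.73 (SE 0.14, limma adjusted p = 1.6e-06).

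Among sensors and adaptors, 2 of 14 tested genes fell and 1 rose (21.4% called, against 16.9% of all tested genes). Tlr9, the receptor for unmethylated DNA, went from 2.85 ± 0.321 to 1.41 ± 0.840 CPM (SD, n = 4 each), and KO-labelled replicate 2 at 2.55 CPM lay inside the wild-type range. Traf3, an adaptor between sensors and the kinases of Irf3, went from 8.35 ± 0.952 to 6.53 ± 0.531 CPM. Ifi203, of the family of interferon-induced DNA-binding proteins, rose from 0.867 ± 0.255 to 1.52 ± 0.129 CPM.

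Of 24 tested further induced genes, 3 fell and 1 rose (16.7% called, near the 16.9% of all tested genes). Parp10, an ADP-ribosyltransferase, fell from 21.7 ± 2.39 to 16.0 ± 0.745 CPM (limma adjusted p = 0.0025). Tor3a, a torsin of the endoplasmic reticulum, fell from 3.54 ± 0.772 to 2.10 ± 0.397 CPM. Oasl1 rose from 0.955 ± 0.382 to 1.78 ± 0.269 CPM, with overlap between the groups.

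Of 15 tested genes that interferon gamma induces, 13.3% were called, against 16.9% of all tested genes. Nlrc5 fell and Cxcl9, a chemokine that attracts T cells, rose from 0.325 ± 0.167 to 0.728 ± 0.231 CPM (limma adjusted p = 0.044). The WT-labelled mean of Cxcl9 lay below the filter of 0.5 CPM. It was thus tested, and counted among the called genes, only through its higher KO-labelled values. With no filter limma also called it higher. Of 10 feedback inhibitors and other Irf genes, limma, edgeR and DESeq2 called none, and none had an unadjusted p under 0.05. Without WT-labelled replicate 4, limma called 3 genes of the list lower (Nlrc5, Parp10 and Tor3a). Without WT-labelled replicate 2 it called none higher, and without KO-labelled replicate 4 only Ifi203.

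**Figure D4:**
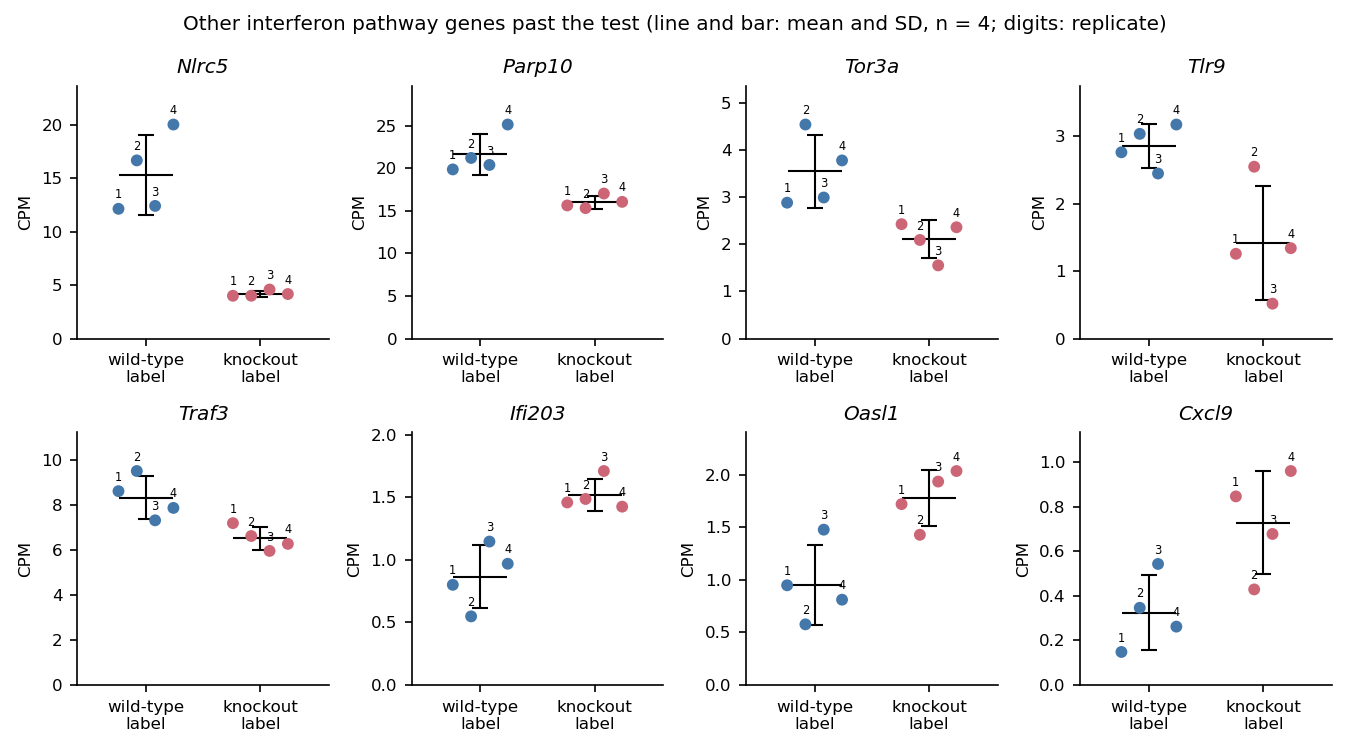
CPM (linear axes from 0) of 8 called genes of the wider pathway list in the 4 WT-labelled libraries (blue) and the 4 labelled knockout (red), with the mean and SD and the replicate as a digit. Nlrc5, Parp10, Tor3a and Traf3 are lower with no overlap, Tlr9 is lower with overlap, and Ifi203, Oasl1 and Cxcl9 are higher.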

How the data were processed

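Total RNA of adult testis was extracted with TRIzol, treated with DNase and made into TruSeq libraries, per the labels' protocols. Reads were processed with Trimmomatic, Subread and featureCounts on GRCm39 (mm39), per the submitters' processing notes. For versions, annotation, strand and multi-mapped reads no source used here gives a setting, so values of close copies and overlapping genes are uncertain. The authors deposited a scaled signal per gene and library, named CPM. Column totals were 990244 to 1025489. The totals differ, so the planned log-scale test for CPM was run on a scaled signal. All values (100%) were whole multiples, within 0.01, of each column's smallest value, which gave back whole reads. Columns named control and kpn were matched by number to the wild-type and knockout titles.

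The main test was limma 3.58.1 (R 4.3.3; lmFit, eBayes with trend) on log2(CPM + 0.5) of the 22027 genes whose mean reached 0.5 CPM, without covariates, with Benjamini-Hochberg adjustment over all of them and a threshold of 0.05. Groups of 4 limit precision. All alternatives were refitted on the whole table, 17 planned and 1 chosen after seeing the data (KO-labelled replicates 1 and 4 left out), with unfiltered fits for the low members also added then, among them edgeR 4.0.16 and DESeq2 1.42.0 run on recovered reads under the deposited scaling. Scripts were tested on simulated data. Symbols were found for 24890 identifiers. Positions and exon lengths are from GENCODE M21 (GRCm38), another build than the authors used. Promoters are from RefSeq (GRCm38.p6).

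Members and lists were chosen with earlier results of these data known. The naming rule was to give called members in every library, other members by means or counts, and up to 8 called pathway genes in each direction. As exceptions chosen after their values were seen, Ddx58, Dhx58, Ifitm2 and Ifi27, which the main test did not call, are also given in every library. So is Ifi44, which lay below the filter of the main test and was called lower with no filter. For 1 called pathway gene, counted in its list, values are not reported here. Sting1 of the pathway list was not matched by symbol.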

Additional observations from a re-analysis of the deposited data

Results flagged for a closer look

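In groups of 4 libraries, 3 of 80 member and group combinations had 1 library whose gap to the nearest other was wider than Dixon's 95% critical share of the group's range. Chance alone gives about 1 in 20. Irf7 stood at 2.44 CPM in WT-labelled replicate 4, against 1.12 to 1.33 CPM in the other 3. Irf9 stood at 4.82 CPM in the same library, against 3.78 to 3.89 CPM. Oas2 stood at 1.11 CPM in KO-labelled replicate 1, against 0.710 to 0.772 CPM in the other 3. None of these 3 genes was called by limma with or without any single library.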

How the results depend on the processing

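Over 18 alternatives, limma, edgeR or DESeq2 called 4 to 8 members lower and 0 higher. Stat2, Mx1, Ifnar1 and Nfkbia were called in each. With the replicate number as a block, 6 members were lower (Gbp2 was lost), and 6 wider pathway genes were lower and 2 higher. Same-numbered libraries did not deviate together (correlations of -0.02, 0.04, -0.02 and -0.03). With KO-labelled replicates 1 and 4 left out, chosen after seeing the data, 2422 genes were called in place of 3731, with 4 members lower and, of the wider pathway, 3 lower and 0 higher. At a filter of 2 CPM 0 pathway genes were higher, because the 3 lie below it. Leaving out 1 library at a time gave 0 to 3 pathway genes higher and 3 to 5 lower; the cause of the other changes was not tested.

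Of 40 members, 14, none of them called, changed sign in at least 1 alternative. Without 1 library each, log2 fold changes ran from -0.0176 to 0.0534 for Ifngr2, -0.0173 to 0.0521 for Tyk2, -0.0748 to 0.0635 for Ifih1, -0.0912 to 0.1858 for Zbp1, -0.1204 to 0.0355 for Adar, -0.1751 to 0.0467 for Oasl2, -0.0794 to 0.0313 for Mx2, -0.0171 to 0.0961 for Bst2, -0.2099 to 0.1285 for Gbp3 and -0.0921 to 0.1422 for Usp18. With no filter, Oas1a had -0.0831, -0.0316, -0.0289 and -0.0808 without WT-labelled replicate 2 or 3 or KO-labelled replicate 2 or 4, Ifit1 -0.0151 without KO-labelled replicate 3 and Isg15 -0.0390 without WT-labelled replicate 3. With KO-labelled replicates 1 and 4 left out, Tyk2 had -0.0472, Ifih1 -0.1317, Adar 0.0036, Oas1a -0.0574 and Xaf1 -0.0298. Mx2 had 0.0114 after quantile normalization, and Usp18 -0.0150 in edgeR and -0.0143 in DESeq2. Depth limits the 6 members below the filter, at 1 to 38 reads per library.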
